A study of Mus musculus with 6 samples.

Results

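The Notch receptor, ligand and target genes examined here are 10 genes of a table of 24411, chosen by symbol. Earlier results of these data were known when they were chosen. They are the targets Hes1, Hes5, Hey1 and Hey2, the receptors Notch1, Notch2 and Notch3, and the ligands Dll1, Dll3 and Jag1. RNA sequencing had been done on primary cultures of mouse cortical neurons in 2 groups of 3 libraries. The PFF libraries came from cultures given mouse α-synuclein preformed fibrils at 3.45 µM on day 10 in vitro, and the PBS libraries from cultures given phosphate-buffered saline. Such fibrils are prepared in a test tube and, once added, can seed aggregation of the α-synuclein that neurons make themselves. The cells of both groups were dissociated from the cortex of embryos at day 18, seeded in medium with serum and then kept in neuron culture medium, with RNA extraction on day 18 in vitro, which is 8 days after the fibrils were added. The labels give no genotype, strain or sex, and nothing in them says that the libraries came from separate cultures, so each p-value reflects the variation among these 6 libraries, and that variation could be technical only. All 10 genes were in the table with whole-number counts, from 22 (Hes1 in PFF 2) to 605 (Notch1 in PBS 3) per library, and the low-count filter kept all 10.

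Notch signalling passes between touching cells. A ligand of the Delta or Jagged type on a cell binds a Notch receptor on its neighbour, the receptor is cut by a metalloprotease and by γ-secretase, and its intracellular domain enters the nucleus, where it joins the DNA-binding protein RBPJ and switches on genes of the Hes and Hey families. These encode basic helix-loop-helix repressors that hold back neuronal differentiation genes, and in the developing cortex the pathway keeps radial glia and other progenitors from differentiating and takes part in the formation of astrocytes and oligodendrocytes. In cultures of mixed cells, a lower value of a transcript can mean fewer cells of a type or less RNA per cell, and bulk RNA cannot tell these apart.

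The promoters of 3 members are shown because they contrast a target that fell after fibrils (Hes5), a target that did not pass the test (Hey2) and a ligand that fell (Dll3). The sequences are from RefSeq on GRCm38.p6, the assembly that mm10 names, and run from 250 bases before to 50 bases after the annotated start, 5′ to 3′ on the strand of the gene. The Hes5 window is chr4:154960673-154960972 (plus strand), the Hey2 window chr10:30842734-30843033 (minus strand) and the Dll3 window chr7:28301736-28302035 (minus strand). Capitals mark TGGGAA or its reverse complement TTCCCA, the core of the sequence that RBPJ recognises.
Hes5: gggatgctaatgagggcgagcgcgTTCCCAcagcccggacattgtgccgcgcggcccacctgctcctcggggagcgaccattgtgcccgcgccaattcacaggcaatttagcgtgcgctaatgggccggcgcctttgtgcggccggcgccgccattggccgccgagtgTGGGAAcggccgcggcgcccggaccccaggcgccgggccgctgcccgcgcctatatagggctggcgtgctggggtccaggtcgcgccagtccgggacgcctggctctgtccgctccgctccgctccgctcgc
Hey2: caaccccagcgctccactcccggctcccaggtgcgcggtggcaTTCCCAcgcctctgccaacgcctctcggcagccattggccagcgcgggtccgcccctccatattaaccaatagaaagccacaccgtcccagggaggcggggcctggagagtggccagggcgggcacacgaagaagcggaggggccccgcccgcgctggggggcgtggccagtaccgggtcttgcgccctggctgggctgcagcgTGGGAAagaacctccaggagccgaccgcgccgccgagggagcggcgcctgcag
Dll3: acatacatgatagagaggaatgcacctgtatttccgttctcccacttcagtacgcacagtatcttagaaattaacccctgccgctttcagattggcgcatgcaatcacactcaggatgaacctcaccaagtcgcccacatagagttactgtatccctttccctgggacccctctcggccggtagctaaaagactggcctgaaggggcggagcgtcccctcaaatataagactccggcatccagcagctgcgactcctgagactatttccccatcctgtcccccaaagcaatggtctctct

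Hes5 and Hey2 each held the core 2 times, once in each orientation, and in both genes each match extended to the longer form GTGGGAA (reverse complement TTCCCAC). In Hes5 the longer matches spanned bases −226 to −220 and −83 to −77 from the start site, and in Hey2 bases −207 to −201 and −4 to 3, where the first transcribed base is counted as 1. Among 32851 RefSeq promoters of the same length, 25.6% held the core at least once on either strand, 6.38% held the longer form, which contains the core, and 0.256% held the longer form 2 or more times. Of the 10 members 8 had a promoter entry, with 2 entries for Dll1, and the other 7 of these 9 entries (Notch1, Notch2, Notch3, Dll1, Dll3 and Jag1) held no core. The N box, the sequence CACNAG to which Hes proteins bind, occurred in neither Hes5 nor Hey2, and was present 3 times in Notch1, 2 times in Notch3, 1 time in Notch2 and 1 time in 1 of the Dll1 entries, against 42.5% of all promoters with at least 1 on either strand. In Notch1, 2 of its 3 matches overlap each other on opposite strands. Hes1 and Hey1 are named only. The RefSeq starts are not always those of GENCODE vM21, the annotation used for the gene coordinates. The windows of Dll3, Notch1 and 1 of the Dll1 entries lie wholly inside the gene as annotated there. Their matches, or lack of them, thus do not describe the bases before the GENCODE start. All matches describe the letters in the windows and do not show binding.

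Total estimated counts ran from 9224974 to 10742383 per library. The first principal component (49.2% of the variance) separated PFF from PBS, and the second (18.3%) set replicate 3 of both groups apart from the other libraries, at −18.0 for PFF 3 and −14.5 for PBS 3. Neuron markers were abundant, with a summed level of 5937 to 6538 CPM in PFF and 5651 to 5978 CPM in PBS over 12 genes, where CPM are counts per 1000000 after scaling between libraries. The cultures labelled as neurons also held transcripts of glia, at 4257 to 5384 CPM in PFF and 4324 to 5669 CPM in PBS for 14 astrocyte markers and 602.3 to 732.1 CPM in PFF and 209.6 to 327.8 CPM in PBS for 16 markers of microglia and macrophages, of which 14 of 15 tested rose. Endothelial markers summed to 7.34 to 8.01 CPM in PFF and 7.09 to 9.10 CPM in PBS over 10 genes, and pericyte, smooth muscle and fibroblast markers to 41.8 to 72.7 CPM in PFF and 65.6 to 87.3 CPM in PBS over 11. The endothelial genes Cldn5 and Tie1 and the pericyte genes Kcnj8 and Abcc9 had 0 counts in every library.

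After 8 days with fibrils, 3 of the 10 members fell and none rose at an adjusted p under 0.05 in edgeR's quasi-likelihood test across 13919 genes. They were the targets Hes5 and Hes1 and the ligand Dll3. No receptor passed. Over all tested genes 6.58% were called, 2.60% as lower and 3.98% as higher in PFF. By unadjusted p under 0.05 it was 4 of 10 members, with Dll1 added, against 21.2% of all tested genes. In the same 4 genes all 3 PFF libraries lay below all 3 PBS libraries, against 11.6% of all tested genes. No member had all PFF libraries above PBS, against 13.4% of all genes, and groups that did not overlap in either direction made up 25.0% of them. The members were chosen with earlier results of these data known, so these shares are no test of the members as a set.

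**Figure D1:**
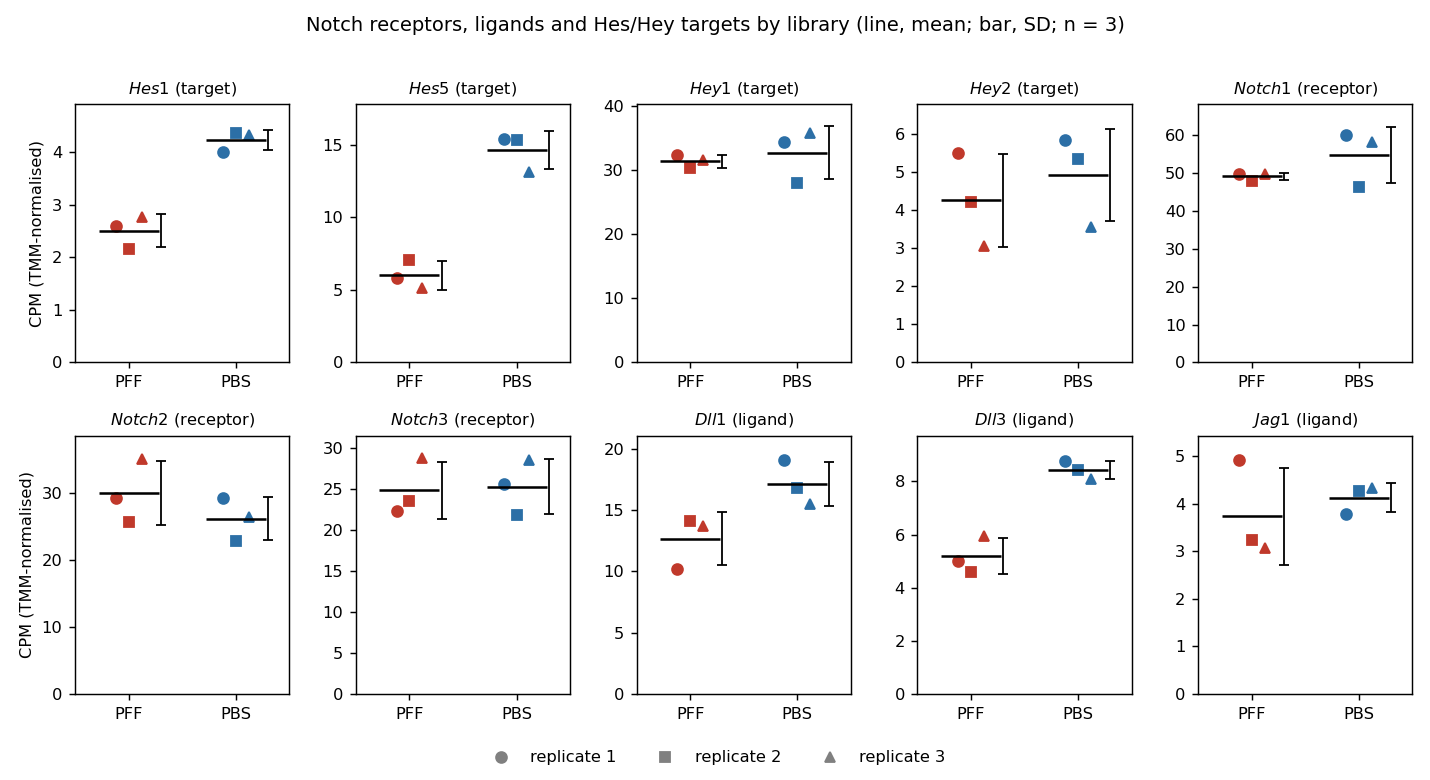
Level of each of the 10 members in CPM (vertical axis, from 0) in every PFF and PBS library, with the mean as a line and the SD as a bar (n = 3 per group). Hes1, Hes5, Dll1 and Dll3 show 3 PFF points below all 3 PBS points, and the groups of the other 6 genes overlap.

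Among the targets, Hes5 encodes a repressor that is a direct Notch target in neural progenitors. It had 5.78, 7.05 and 5.14 CPM in PFF 1, 2 and 3, against 15.4, 15.3 and 13.1 CPM in PBS 1, 2 and 3. These correspond to 60, 72 and 52 counts in PFF and 142, 158 and 136 counts in PBS. The highest PFF library stood well below the lowest PBS library. Hes5 averaged 5.99 ± 0.971 CPM in PFF and 14.6 ± 1.31 CPM in PBS (SD, n = 3 each), a log2 fold change of −1.28 ± 0.15 (SE; adjusted p = 0.000158 in edgeR). This is a 0.411-fold level with a 95% interval of 0.328 to 0.515, and Hes5 ranked 72nd of all tested genes by p. With replicates 1 and 2 only, chosen after the data were seen, it was −1.25 (adjusted p = 6.95e-06 in edgeR). Of the exonic bases of Hes5 in GENCODE vM21 (chromosome 4, 154960923 to 154962371), 31.8% lie under a transcript on the opposite strand, and since the strand setting of the counting is not given here, reads of that transcript cannot be told apart from its own.

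Hes1, the other Hes family repressor, is expressed in neural stem cells and is also driven by signals other than Notch. Its level was low, at 2.60, 2.15 and 2.77 CPM in PFF 1, 2 and 3 and 4.01, 4.37 and 4.33 CPM in PBS 1, 2 and 3. The groups did not overlap, and the counts behind them were 27, 22 and 28 in PFF against 37, 45 and 45 in PBS. The mean was 2.51 ± 0.318 CPM in PFF and 4.24 ± 0.199 CPM in PBS (SD, n = 3 each). The log2 fold change was −0.76 ± 0.21 (SE) with an adjusted p = 0.0435 in edgeR, a 0.593-fold level with a 95% interval of 0.436 to 0.805. Hes1 kept its sign in all 16 alternatives that could be computed, but passed in only 9 of them: leaving out any 1 library except PFF 3 gave an adjusted p between 0.0932 and 0.190, DESeq2 gave 0.140 and scaling by library size only 0.0534. With replicates 1 and 2 only it was −0.81 (adjusted p = 0.0488 in edgeR). Its gene lies on chromosome 16 from 30064384 to 30067796.

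The Hey genes encode the related repressors with which Hes proteins can pair, and both are best known for their roles in blood vessels and heart. Hey1 had the most counts of the targets, with no correction for length, at 32.3, 30.3 and 31.5 CPM in PFF 1, 2 and 3 and 34.3, 27.96 and 35.7 CPM in PBS 1, 2 and 3. Every PFF value lay inside the PBS range. Its log2 fold change was −0.06 ± 0.10 (SE, adjusted p = 0.802 in edgeR), and the 95% interval of −0.28 to 0.16 does not reach the change of Hes5 or of Hes1. Hey2 had 5.49, 4.21 and 3.06 CPM in PFF 1, 2 and 3 and 5.85, 5.34 and 3.56 CPM in PBS 1, 2 and 3. The groups overlapped, and replicate 3 was the lowest library in both. Hey2 did not pass (−0.20 ± 0.24, SE; adjusted p = 0.693 in edgeR), and its wide interval, −0.72 to 0.32, leaves room for a fall as large as the one estimated for Dll3. The balance among the targets therefore differed between the groups: Hes5 supplied 12.5%, 16.1% and 12.1% of the summed CPM of the 4 targets in PFF 1, 2 and 3, against 25.8%, 28.9% and 23.1% in PBS 1, 2 and 3. Hey1 supplied 69.3 to 74.2% in PFF and 52.7 to 63.0% in PBS.

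Of the receptors, Notch1 is the main receptor of cortical progenitors. It had 49.8, 48.1 and 49.7 CPM in PFF 1, 2 and 3, against 60.1, 46.3 and 58.2 CPM in PBS 1, 2 and 3. The PFF values lay within the PBS range, and the change was −0.16 ± 0.10 on the log2 scale (SE; adjusted p = 0.386 in edgeR; 95% interval −0.37 to 0.06). Notch2, a receptor expressed in progenitors and glia, had 29.3, 25.7 and 35.1 CPM in PFF 1, 2 and 3 and 29.2, 22.9 and 26.5 CPM in PBS 1, 2 and 3. It was the only member with a positive estimate (0.20 ± 0.12, SE; adjusted p = 0.384 in edgeR; 95% interval −0.07 to 0.47), and the groups overlapped. Notch3, a receptor characteristic of mural cells of vessels and also expressed in glia and progenitors, had 22.3, 23.5 and 28.8 CPM in PFF 1, 2 and 3, against 25.6, 21.8 and 28.5 CPM in PBS 1, 2 and 3. The estimate for Notch3 was −0.03 ± 0.12 (SE; adjusted p = 0.931 in edgeR; 95% interval −0.29 to 0.24), and replicate 3 was the highest library in both groups. For none of the receptors does the interval reach the estimate of Hes5, Hes1 or Dll3.

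Among the ligands, Dll3 differs from the others in that it does not activate Notch on neighbouring cells and acts mainly inside the cell that makes it. It had 5.01, 4.60 and 5.93 CPM in PFF 1, 2 and 3, against 8.77, 8.45 and 8.08 CPM in PBS 1, 2 and 3. The groups did not overlap. The mean was 5.18 ± 0.681 CPM in PFF and 8.43 ± 0.344 CPM in PBS (SD, n = 3 each), a log2 fold change of −0.70 ± 0.16 (SE; adjusted p = 0.0165 in edgeR), or a 0.615-fold level with a 95% interval of 0.487 to 0.778. Without PFF 1, PFF 2 or PBS 1, Dll3 did not pass (adjusted p = 0.0587, 0.0954 and 0.0687), and with replicates 1 and 2 only it was −0.83 (adjusted p = 0.00457 in edgeR). Dll3 lies on chromosome 7 from 28293553 to 28302238.

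Dll1, an activating ligand shown by differentiating neuronal precursors to their neighbours, had 10.2, 14.1 and 13.7 CPM in PFF 1, 2 and 3 and 19.1, 16.8 and 15.5 CPM in PBS 1, 2 and 3. All PFF values were lower, yet Dll1 did not pass across all genes (−0.43 ± 0.14, SE; adjusted p = 0.0919 in edgeR; unadjusted p = 0.00870; 95% interval −0.73 to −0.13). It passed with replicates 1 and 2 only (−0.55, adjusted p = 0.0124 in edgeR). Of the exonic bases of Dll1, 20.5% lie under a non-coding transcript on the opposite strand. Jag1, a ligand expressed by progenitors, astrocytes and vessel cells, had 4.92, 3.23 and 3.06 CPM in PFF 1, 2 and 3, against 3.79, 4.27 and 4.33 CPM in PBS 1, 2 and 3. PFF 1 was the highest library of all 6 and PFF 3 the lowest, and Jag1 did not pass (−0.14 ± 0.22, SE; adjusted p = 0.759 in edgeR; 95% interval −0.62 to 0.33).

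Set side by side, targets and upstream genes were each split. Of the 4 targets 2 fell, with a median log2 fold change of −0.48, and of the 6 receptors and ligands 1 fell, with a median of −0.15, beside −0.00056 for all tested genes. These calls stand beside 2.60% of all tested genes called as lower. The difference between the medians, −0.33, has no test. It shrank to −0.04 with a filter of at least 50 counts in 3 libraries, which removes Hes1 and Jag1. The 3 ligands had a median of −0.43 and the 3 receptors of −0.03, where Dll1 and Dll3 lay below all 3 receptors and Jag1 (−0.14) lay beside Notch1 (−0.16). Summed over the 4 targets the level was 46.2, 43.7 and 42.5 CPM in PFF 1, 2 and 3 and 59.6, 53.0 and 56.7 CPM in PBS 1, 2 and 3. Summed over the 3 ligands it was 20.1, 21.9 and 22.7 CPM in PFF, against 31.6, 29.5 and 27.9 CPM in PBS. Neither sum overlapped between the groups, and of all tested genes, taken singly, 25.0% did not overlap. The target sum averaged 44.1 CPM in PFF and 56.4 CPM in PBS. Within it Hes5 averaged 5.99 CPM in PFF and 14.6 CPM in PBS. Hey1, its largest part, averaged 31.4 CPM in PFF and 32.7 CPM in PBS and overlapped. Much of the lower target sum thus came from Hes5 alone. Over the 3 receptors the summed level was 101.4, 97.2 and 113.6 CPM in PFF 1, 2 and 3. In PBS 1, 2 and 3 it was 114.9, 91.1 and 113.2 CPM, so the receptor sums overlapped.

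**Figure D2:**
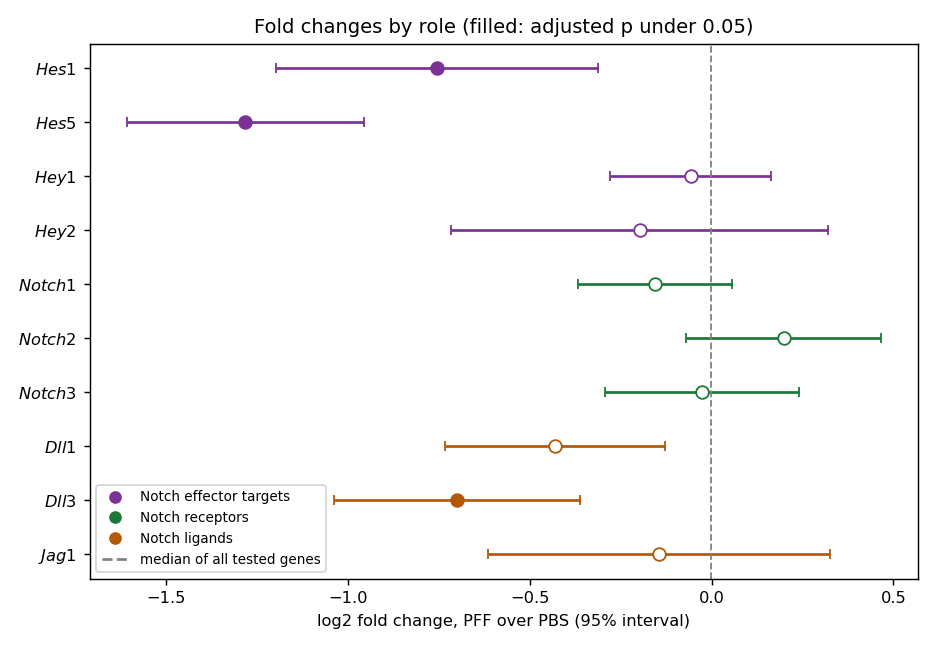
Log2 fold change, PFF over PBS, of each member (horizontal axis) with its 95% interval, coloured by role, and filled where the adjusted p was under 0.05. Hes5 stands lowest at −1.28, Hes1 and Dll3 are also filled, and the dashed line marks the median of all tested genes.

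Levels were compared between members per kilobase of annotated exon, all exons of a gene joined. In PBS, Hes5 at 10.7 ± 0.961 and Hey1 at 10.0 ± 1.27 CPM per kb (SD, n = 3 each) stood highest, and their ranges overlapped. In PFF, Hey1 at 9.60 ± 0.316 CPM per kb stood apart from Hes5 at 4.40 ± 0.712, and Notch1 was at 3.46 ± 0.0694. The order of Hes5 and Notch1 in PFF turned with the length used: per kilobase of the longest transcript Hes5 was at 4.71 ± 0.763 and Notch1 at 5.19 ± 0.104 CPM per kb, with overlapping ranges. On that scale Hey1 at 13.5 ± 1.70 stood above Hes5 at 11.5 ± 1.03 CPM per kb in PBS, and their ranges overlapped there too. Notch1, Notch3, Dll1 and Notch2 followed in PFF between 3.46 and 2.78 CPM per kb, each overlapping the next. In PBS the order after Hey1 was Dll1, Notch1, Notch3 and Dll3, between 4.06 and 2.96 CPM per kb, each overlapping the next, and then Notch2 and Hes1. Dll3 and Hes1 stood at 1.82 and 1.23 CPM per kb in PFF and at 2.96 and 2.08 CPM per kb in PBS. Hey2 and Jag1 were the least abundant members in both groups, at 0.927 and 0.641 CPM per kb in PFF and 1.07 and 0.709 in PBS. Relative to transcript length, the position of Hes5 beside Hey1 in PBS was thus not held in PFF.

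**Figure D3:**
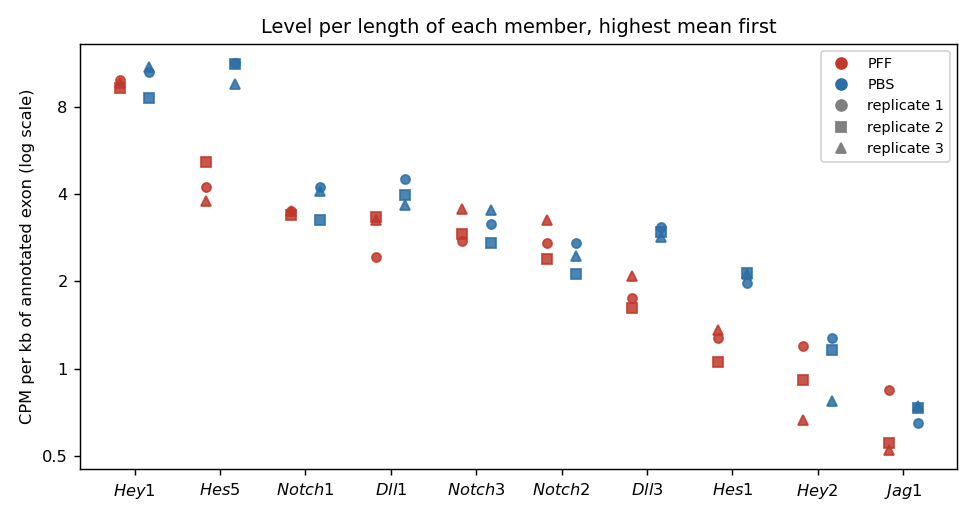
CPM per kilobase of annotated exon (vertical axis, log scale) of each member in every PFF and PBS library, ordered by the mean over all 6 libraries. Hes5 lies between 3.77 and 5.17 in PFF and between 9.60 and 11.3 in PBS, while Hey1 lies between 8.56 and 10.9 in all libraries.

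The remaining genes of the pathway were read from lists of 72 symbols, of which 71 were in the table and 64 had enough counts to be tested. Of these 64, 2 rose and 3 fell, or 7.81%, beside 6.58% of all tested genes. Their median log2 fold change was 0.03, and 40.6% were lower in PFF, against 50.1% of all genes. A share so near that of all genes is not a result about the pathway. The pathway lists split these genes, and each count of calls in them stands beside 2.60% of all tested genes called as lower and 3.98% as higher.

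Of 8 further targets and Hes family genes only 3 were tested, since Heyl, Hes2, Hes3, Hes7 and Helt had at most 12 counts in any library. Nrarp, a Notch target that acts as a feedback inhibitor of the pathway, fell: it had 12.9, 14.1 and 13.8 CPM in PFF 1, 2 and 3 and 17.5, 18.7 and 17.3 CPM in PBS 1, 2 and 3 (−0.39 ± 0.11, SE; adjusted p = 0.0475 in edgeR). The groups of Nrarp did not overlap. Leaving out any single library other than PFF 3 ended the call (adjusted p from 0.0705 to 0.163) as did DESeq2 (0.124), and 79.4% of its exonic bases lie under an antisense transcript. Hes6, a Hes family member that opposes Hes1 and favours neuronal differentiation, had all PFF libraries below PBS but did not pass (−0.42 ± 0.13, SE; adjusted p = 0.0749 in edgeR), although it did without PFF 3 (0.0318). Dtx1, a ubiquitin ligase of the Deltex family and a Notch target in lymphocytes, was at 0.03 ± 0.08 (adjusted p = 0.887 in edgeR).

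Of 6 further receptors and ligands, none passed. Dner, a neuronal transmembrane ligand, averaged 211.3 ± 24.2 CPM in PFF and 187.5 ± 21.3 CPM in PBS (SD, n = 3 each; adjusted p = 0.338 in edgeR), and Jag2 20.4 ± 1.34 CPM in PFF and 18.7 ± 1.84 CPM in PBS (adjusted p = 0.573). The non-canonical ligand Dlk1 was near 1 CPM, at 1.01 ± 0.0444 in PFF and 1.66 ± 0.322 in PBS (−0.72 ± 0.31, SE; adjusted p = 0.205 in edgeR). None of 5 tested glycosylation enzymes passed, among them Lfng, the fringe enzyme that changes which ligand a receptor answers to (0.20 ± 0.16, SE), Eogt (−0.37 ± 0.17; adjusted p = 0.229 in edgeR) and Poglut1 (−0.13 ± 0.08; adjusted p = 0.390).

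In the list of sheddases and γ-secretase 1 of 10 genes rose and none fell. Adam17, a metalloprotease that sheds Notch and also the cytokine TNF, had 29.2, 28.2 and 30.4 CPM in PFF 1, 2 and 3, against 23.7, 23.5 and 22.8 CPM in PBS 1, 2 and 3. The groups did not overlap, and the change was 0.33 ± 0.09 (SE; adjusted p = 0.0446 in edgeR), although Adam17 did not pass without any 1 of the 6 libraries (adjusted p from 0.0618 to 0.128) or in DESeq2 (0.124). The convertase gene Furin and the γ-secretase gene Aph1c were higher in all PFF libraries and did not pass (adjusted p = 0.103 and 0.149 in edgeR), although Furin did without PFF 3 (0.0474). The markers of microglia, in which Adam17 is also expressed, rose in the same libraries (14 of 15 tested), and their part in the value of Adam17 was not tested.

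Among 23 tested genes of the nuclear complex and its corepressors, L3mbtl3 rose and none fell. L3mbtl3, which encodes a chromatin reader that competes with the Notch intracellular domain for RBPJ, had 42.1, 43.9 and 41.9 CPM in PFF 1, 2 and 3 and 32.8, 31.7 and 33.0 CPM in PBS 1, 2 and 3. The change was 0.39 ± 0.08 (SE; adjusted p = 0.0108 in edgeR), with a wide gap between the groups. It did not pass without PFF 2 (adjusted p = 0.0674) or PBS 2 (0.0563). The coactivator gene Maml2 (−0.37 ± 0.12, SE; adjusted p = 0.0786) and the corepressor gene Tle3 (0.26 ± 0.10; adjusted p = 0.155) did not pass in edgeR, although Tle3 did without PFF 3 (0.0311) and Maml2 with replicates 1 and 2 only (0.0240), and Rbpj itself, named after its value was seen, was at 0.17 ± 0.09 (adjusted p = 0.301).

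Among 17 genes of trafficking and turnover 2 fell, beside 2.60% of all tested genes, and these were both Neuralized genes. Neurl1a and Neurl1b encode ubiquitin ligases that promote endocytosis of Notch ligands. Neurl1a had 106.7, 124.7 and 135.6 CPM in PFF 1, 2 and 3 and 158.0, 154.9 and 174.8 CPM in PBS 1, 2 and 3 (−0.41 ± 0.09, SE; adjusted p = 0.0157 in edgeR). Neurl1b had 142.1, 154.3 and 142.7 CPM in PFF 1, 2 and 3 and 173.1, 178.8 and 194.6 CPM in PBS 1, 2 and 3 (−0.32 ± 0.08, SE; adjusted p = 0.0239 in edgeR). Neither gene had overlapping groups. Neurl1a did not pass without PFF 1, PFF 2 or PBS 1 (adjusted p = 0.0661, 0.0664 and 0.0511), nor Neurl1b without any 1 of PFF 1, PFF 2, PBS 2 or PBS 3 (0.0542 to 0.0906). Numb, which encodes an endocytic antagonist of Notch, was higher in all PFF libraries but did not pass (0.31 ± 0.11, SE; adjusted p = 0.106 in edgeR), although it did without PFF 3 (0.0318).

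Genes that Hes factors repress or resemble were also read, in short lists, beside 2.60% of all tested genes called as lower and 3.98% as higher. In a list of proneural and related basic helix-loop-helix genes, 2 of 8 tested fell and none rose, and both were the oligodendrocyte lineage genes Olig1 (−0.34 ± 0.07, SE; adjusted p = 0.0131 in edgeR) and Olig2 (−0.41 ± 0.10; adjusted p = 0.0274). Neurod1, which encodes a factor of neuronal differentiation, was at 0.40 ± 0.14 (SE) and did not pass (adjusted p = 0.119 in edgeR). The Id genes, which encode inhibitors that lack a DNA-binding region and sequester other basic helix-loop-helix proteins, had 2 of 4 fall, Id3 (−1.87 ± 0.17, SE) and Id1 (−0.91 ± 0.18), with adjusted p = 4.01e-05 and 0.00790 in edgeR. Id4 did not pass (−0.45 ± 0.13, SE; adjusted p = 0.0570 in edgeR), although it did without PFF 3 (0.0358) or PBS 2 (0.0211). Olig1 did not pass without PFF 2 or PBS 1 (adjusted p = 0.0912 and 0.0807), Olig2 without PFF 2, PBS 1 or PBS 2 (0.0897 to 0.159), nor Id1 without PFF 2 (0.0574).

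**Figure D4:**
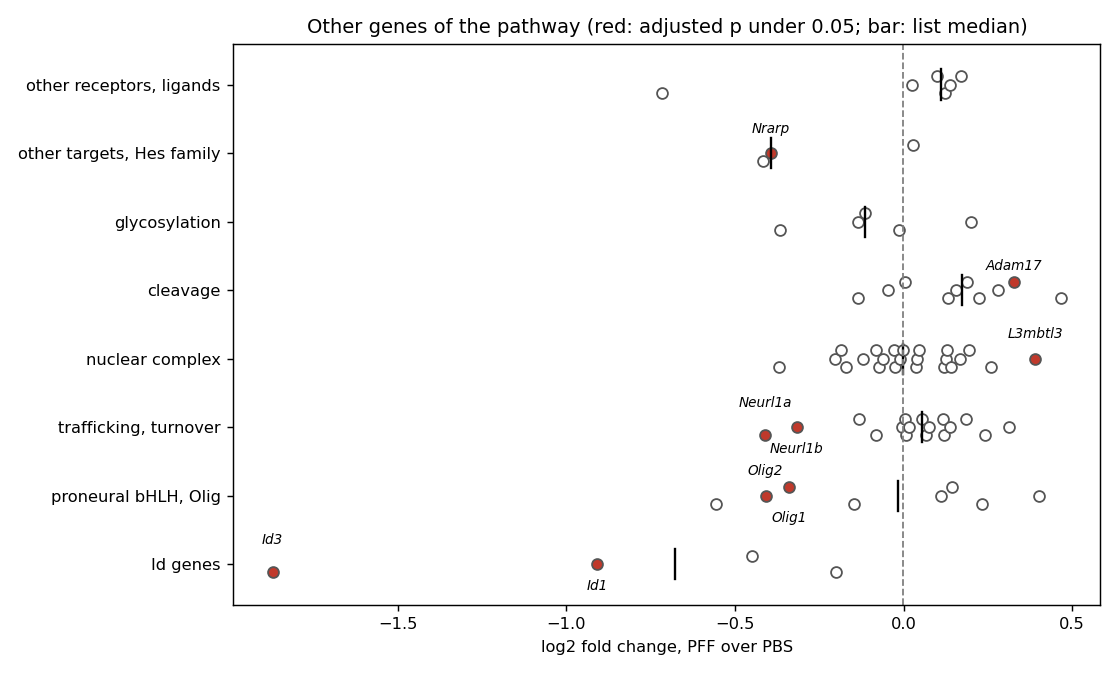
Log2 fold change, PFF over PBS (horizontal axis), of every tested gene of the 6 lists of other pathway genes, the proneural list and the Id list, with the median of each list as a bar and the median of all tested genes as a dashed line. The 9 red, named points passed at an adjusted p under 0.05, and Id3 lies lowest at −1.87.

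The genes with the most similar profile over the 6 libraries were found by the root mean square difference of log2 CPM, each gene centred on its own mean. Compared were tested genes whose mean was 5 CPM or more and whose symbol is not a bare model name. For Hes5 the most similar, of 11065 genes, were Gpr17 (a difference of 0.135), the plexin gene Plxnb3 (0.210) and the zinc-finger factor gene Myt1 (0.234). Eya1 (0.254) and Sox10 (0.264) followed. Gpr17, a receptor of committed oligodendrocyte precursors, had 40.0, 40.8 and 33.5 CPM in PFF 1, 2 and 3 and 100.5, 99.2 and 67.8 CPM in PBS 1, 2 and 3, so that replicate 3 was the lowest library of each group, as for Hes5. For Hes1 they were, of 11066 genes, the manganese exporter gene Slc30a10 (0.0451), the scaffold gene Akap12 (0.0496), the carbonic anhydrase gene Car2 (0.0631), Nckap5 (0.0812) and the member Dll3 (0.0838). The groups of all 10 of these genes were apart, which the likeness to Hes5 or Hes1 itself favours.

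**Figure D5:**
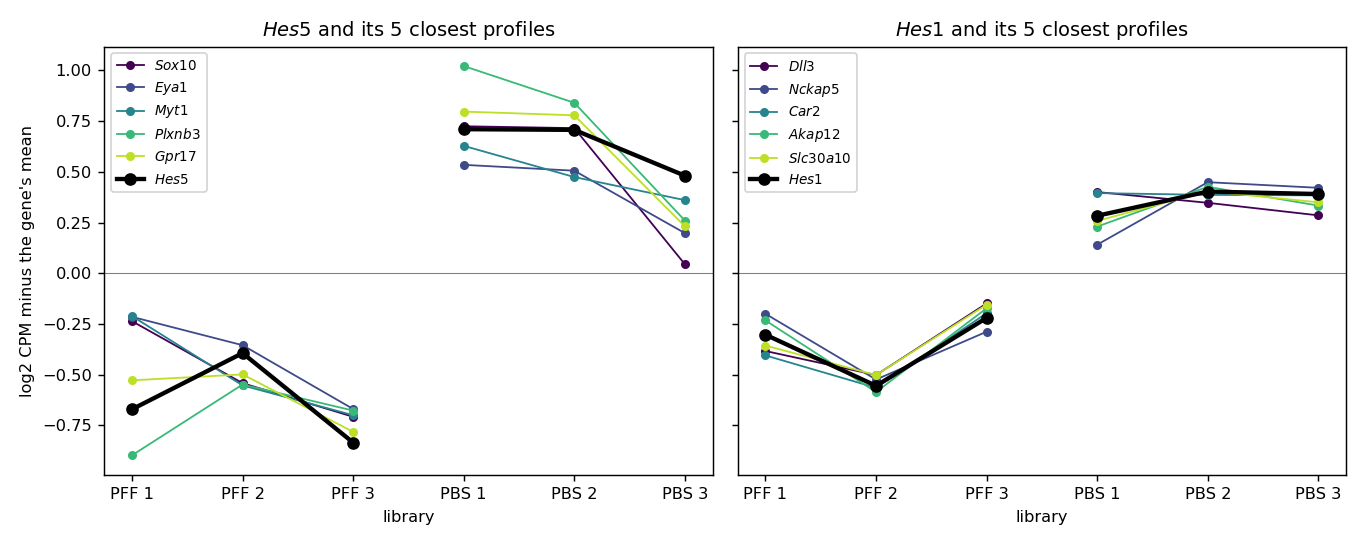
Log2 CPM minus the mean of each gene over the 6 libraries (vertical axis) in PFF 1 to 3 and PBS 1 to 3 for Hes5 and Hes1 (black) and the 5 genes closest to each. In Hes5, PFF 3 and PBS 3 are the lowest library of their group, and Dll3 is among the 5 profiles closest to Hes1.

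Markers of the cell types in which these genes are known to be active were read from the same libraries. The counts of calls stand beside 2.60% of all tested genes called as lower and 3.98% as higher. Of 10 tested markers of oligodendrocyte progenitors and precursors 9 fell and none rose, with a median log2 fold change of −0.81, and their summed level was 620.8 to 665.4 CPM in PFF and 829.1 to 1024 CPM in PBS. Of 6 tested markers of mature myelin 5 rose and none fell, with sums over 8 genes of 632.5 to 960.7 CPM in PFF and 391.9 to 480.8 CPM in PBS. Of 14 astrocyte markers 3 fell and none rose (median −0.18), and their sums overlapped between the groups, with Aldoc at −0.46 ± 0.09 (SE; adjusted p = 0.00716 in edgeR) and Slc1a2 at −0.51 ± 0.10 (adjusted p = 0.00906). Of 11 tested markers of progenitors and radial glia 1 fell, the homeobox gene Hopx (−0.56 ± 0.15, SE; adjusted p = 0.0433 in edgeR), and none rose, with sums over all 12 of 1423 to 1866 CPM in PFF and 1633 to 2023 CPM in PBS, which overlapped. Of 10 proliferation markers 2 fell, Cenpf (−0.60 ± 0.10, SE) and Top2a (−0.36 ± 0.09), with adjusted p = 0.00258 and 0.0317 in edgeR, and their sums were 149.0 to 173.1 CPM in PFF and 200.3 to 204.1 CPM in PBS. Without PFF 2, neither Aldoc, Slc1a2, Hopx nor Top2a passed (adjusted p from 0.0557 to 0.204). Without PBS 1 neither Aldoc, Hopx nor Top2a passed (0.0530 to 0.161), without PBS 2 neither Hopx nor Top2a (0.0544 and 0.111), and Hopx did not pass without PFF 1 (0.131) or PBS 3 (0.133).

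The members that fell differed in how they stood relative to the sum of the 10 oligodendrocyte progenitor markers in the same library, of which Gpr17 and Sox10 are also among the closest profiles to Hes5. Per 1000 CPM of that sum there were 8.69, 11.2 and 8.28 CPM of Hes5 in PFF 1, 2 and 3, against 15.0, 15.4 and 15.8 in PBS 1, 2 and 3. This ratio did not overlap between the groups, but the sum is mostly Olig1, Lhfpl3, Olig2 and Pdgfra. Taken over each of the 10 markers alone, a comparison chosen after the values were seen, the ratio of Hes5 was lower in all PFF libraries for 5 markers (Pdgfra, Cspg4, Olig1, Olig2 and Lhfpl3) and overlapped for the other 5 (Sox10, Gpr17, Bcas1, Enpp6 and Nkx2-2). Hes5 over Gpr17 was 0.145, 0.173 and 0.153 in PFF 1, 2 and 3, against 0.153, 0.155 and 0.193 in PBS 1, 2 and 3. Gpr17 had the closest profile to Hes5 in these same libraries, so a similar ratio in both groups follows from that. The same holds for Sox10. For Dll3 the ratio to the sum was 7.53, 7.33 and 9.55 in PFF and 8.57, 8.48 and 9.75 in PBS, and for Hes1 3.91, 3.43 and 4.46 in PFF and 3.91, 4.38 and 5.22 in PBS, which overlapped in both. Dll1 on that scale was 15.4, 22.4 and 22.1 in PFF and 18.6, 16.9 and 18.7 in PBS, which also overlapped. Relative to the sum of the 14 astrocyte markers the picture was another: Hes5 stood at 0.955 to 1.64 CPM per 1000 CPM in PFF and 2.31 to 3.55 in PBS, Hes1 at 0.502 to 0.611 in PFF and 0.764 to 1.01 in PBS, and Dll3 at 1.07 to 1.18 in PFF and 1.43 to 1.95 in PBS, none of which overlapped, while Dll1 did overlap, with its highest PFF library at 3.28 and its lowest PBS library at 2.73. Gfap was the largest part of the astrocyte sum, at a mean of 1837 CPM in PFF and 1689 CPM in PBS. Slc1a2 and Aldoc, which are in the same sum, fell. Ratios to single astrocyte markers were not taken, so the missing overlap holds for the sum only. All these ratios are descriptions without a test, and the part of cell numbers in the falls was not tested.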

How the data were processed

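Strand-marking libraries of total RNA were sequenced from 3 PFF and 3 PBS samples, as the protocols in the labels state. The authors deposited unscaled estimated counts for each gene, of which 8.69% were not whole. Trim Galore 0.6.6, STAR 2.7.9a and DESeq2 1.38.3 with mm10 are named without roles, per the submitters' processing notes, while no source used here gives the counting tool, its strand setting or the annotation.

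Counts were rounded. In R 4.3.3 with edgeR 4.0.16, filterByExpr removed 10492 of 24411 genes, and 13919 were scaled by TMM and tested with the robust quasi-likelihood F-test, two-sided, on group, with Benjamini-Hochberg adjustment over all tested genes at 0.05. CPM use the TMM-scaled totals of the tested genes, and log2 CPM a prior count of 2. Standard errors are the log2 fold change over the square root of F. Library totals of 9224974 to 10742383 set the depth, and replicate 1 and 2 of a group differed by more than sampling noise (chi-square per degree of freedom 2.99 in PFF and 2.78 in PBS). Replicate 3 differed more from replicates 1 and 2 of its group, at 9.62 and 8.67 in PFF and 7.51 and 8.73 in PBS. Coordinates, exon lengths and overlaps came from GENCODE vM21 (GRCm38), which held 95.8% of the symbols. The steps were tested on simulated data.

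The members and lists were chosen with earlier results of these data known. Named are all members, up to 3 genes per pathway list and 2 per marker list by smallest p. The 5 closest profiles to Hes5 and Hes1 are also named. Marker genes with no value of their own are counted only. Rbpj and Gfap were chosen after their values had been looked at. Alternatives were other scalings and filters, DESeq2 1.42.0, limma-voom (limma 3.58.1), no robust estimation, other thresholds, a replicate block, each library left out and, chosen after the data were seen, replicates 1 and 2 only and replicate 3 as a batch term.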

Additional observations from a re-analysis of the deposited data

How the results depend on the processing

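Hes5 passed in all 17 alternatives (log2 fold change from −1.41 to −1.18, adjusted p up to 0.00134 in edgeR). Dll3 passed in 14 of 17 and kept its sign in all (−0.83 to −0.62). Hes1 could not be tested with at least 50 counts in 3 libraries. Dll1 passed in 5 of 17 (adjusted p = 0.0475 without a low-count filter, 0.0420 with the replicate block and 0.0469 without PFF 3). No other member passed in any alternative. The number of members called was 1 to 4 with each library left out (1 without PFF 1, PFF 2 or PBS 1) and 1 at an adjusted p under 0.01, where Hes5 was left. The number of all genes changed was 412 to 1858 with each library left out, 414 at an adjusted p under 0.01, 1391 under 0.1, 1997 with the replicate block, 2005 with replicate 3 as a batch term and 2394 with replicates 1 and 2 only. The number of other pathway genes changed was 0 to 11 with each library left out, 0 at an adjusted p under 0.01, 3 in DESeq2, 11 with the replicate block, and 12 both with replicate 3 as a batch term and with replicates 1 and 2 only. With the replicate block Hes6, Furin, Maml2, Tle3, Numb and Id4 also passed (adjusted p = 0.0302, 0.0391, 0.0198, 0.0144, 0.00724 and 0.00397 in edgeR). Deviations of same-numbered libraries from their group means correlated at 0.0919, 0.109 and 0.202 for replicates 1, 2 and 3. The main fit used group only because the labels give no batch. Whether same-numbered libraries shared a batch was not tested, and these correlations do not decide it. With the length of the longest transcript, levels were 2.30 CPM per kb for Hes1, 13.2 for Hey1, 1.80 for Hey2, 5.49 for Notch1, 4.16 for Dll1 and 2.60 for Dll3. Scaling moved the median of all genes by at most 0.03 (log2, library size only). Genes of few counts, such as Hes1, Jag1 and Hey2, had standard errors above 0.20, so changes of the size of Dll1's could be missed in them.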
